A study of Mus musculus with 2 samples.

Results

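The interleukin receptor genes were the 34 gene symbols, of 16819 in a matrix of 2668 DRG immune cells, whose name begins with Il and a number followed by r, with the antagonist gene Il1rn left out. The cells came from dorsal root ganglia (DRG), which hold the cell bodies of sensory neurons, of naive wild-type BALB/cAnNRj mice. Ganglia of 3 male and 3 female mice were digested with enzymes, each animal was marked with a hashtag antibody, and live CD45+ cells were sorted and run together in 1 lane of a droplet system, so no treated group exists and every animal shares strain, genotype and lane. The matrix of 2668 cells held the 3 males (481, 772 and 1415 cells, with 4239463, 5656097 and 13508078 unique molecular identifiers, UMIs), and 1073 cells of the 3 females were read from the unfiltered matrix of the same lane. The 34 genes took 16707 of 23403638 UMIs in the male cells.

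Interleukins are secreted proteins by which immune cells address each other, and how a cell answers an interleukin depends on the receptor chains on its surface, some of which can also act in soluble form or be presented by a neighbouring cell. Most interleukin receptors pair a chain that binds 1 ligand with a chain shared by several receptors, such as the common gamma chain encoded by Il2rg, the IL-10 receptor beta chain encoded by Il10rb, or gp130 encoded by Il6st. Receptors of the IL-1 and IL-17 families signal through adaptor proteins, and the others through JAK kinases and STAT transcription factors.

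Cells fell into 7 classes, found by clustering on genes other than the receptors and named from marker genes: 1490 macrophages, 107 monocytes, 51 cDC1 and 41 cDC2 (conventional dendritic cells of type 1 and type 2), 500 neutrophils, 134 B cells and 94 T or NK cells. These short names stand for cells resembling those types. The marker lists had a UMI of every gene in their own class, and the summed level of the 10 macrophage markers was 19300 to 22800 CPM (UMIs of a gene per 1000000 UMIs of all genes in the cells of a class and mouse) in macrophages and at most 2190 CPM in the others. The 10 neutrophil markers stood at 425000 to 452000 CPM in neutrophils, at 1200 to 16000 CPM in monocytes and at 562 to 1950 CPM in the other 5 classes. The 251 cells outside these classes were innate lymphoid cells, precursors and small groups given below where a receptor marked them.

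Of the 34 genes, 23 had at least 20 UMIs and 14 passed the filter on low counts for the comparison of classes. Each class was compared with the mean log2 level of the other 6 classes over 3 mice, on UMIs summed per mouse and class (edgeR's quasi-likelihood test, Benjamini-Hochberg adjustment over 4515 genes). Since the classes were drawn from other genes of the same cells, these tests describe cells already separated by expression. The number of receptor genes called higher and lower was 6 and 2 in macrophages, where 30.0% of all genes tested were called higher and 22.5% lower. It was 5 and 1 in monocytes (22.2% of all genes higher and 10.5% lower), 2 and 4 in cDC1 (20.5% and 12.8%), and 5 and 0 in cDC2 (18.3% and 7.13%). It was 5 and 4 in neutrophils (37.4% and 33.0%), 3 and 4 in B cells (24.1% and 21.4%), and 8 and 2 in T or NK cells (20.7% and 17.6%). T or NK cells had the most receptors called higher among the genes that passed the filter. A gene could pass through 1 class alone, as Il2rb, Il27ra and Il18r1 did through T or NK cells. Il18rap passed only through its values in neutrophils and T or NK cells. The higher calls of these genes in the classes that let them pass followed in part from the filter and are not separate support. Genes at lower levels were left out of these counts, such as Il11ra1 with 446 UMIs in macrophages. Of the 34 higher calls, 9 were not made in female mice, 5 of them in monocytes, where 1 female sum had enough cells. Where a class held no UMI of a gene, the fitted fold change rests on the prior count, so only levels and adjusted p are given for such genes. The adjusted p is limited too, since the mean log2 level of the other classes then includes the empty class. In macrophages the SE was 328.98 for Il7r, absent from cDC1, and 285.35 for Il1r2, absent from B cells, and neither was called. The counts of lower calls can therefore miss genes, and higher calls of such genes rest in part on the empty class.

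**Figure D1:**
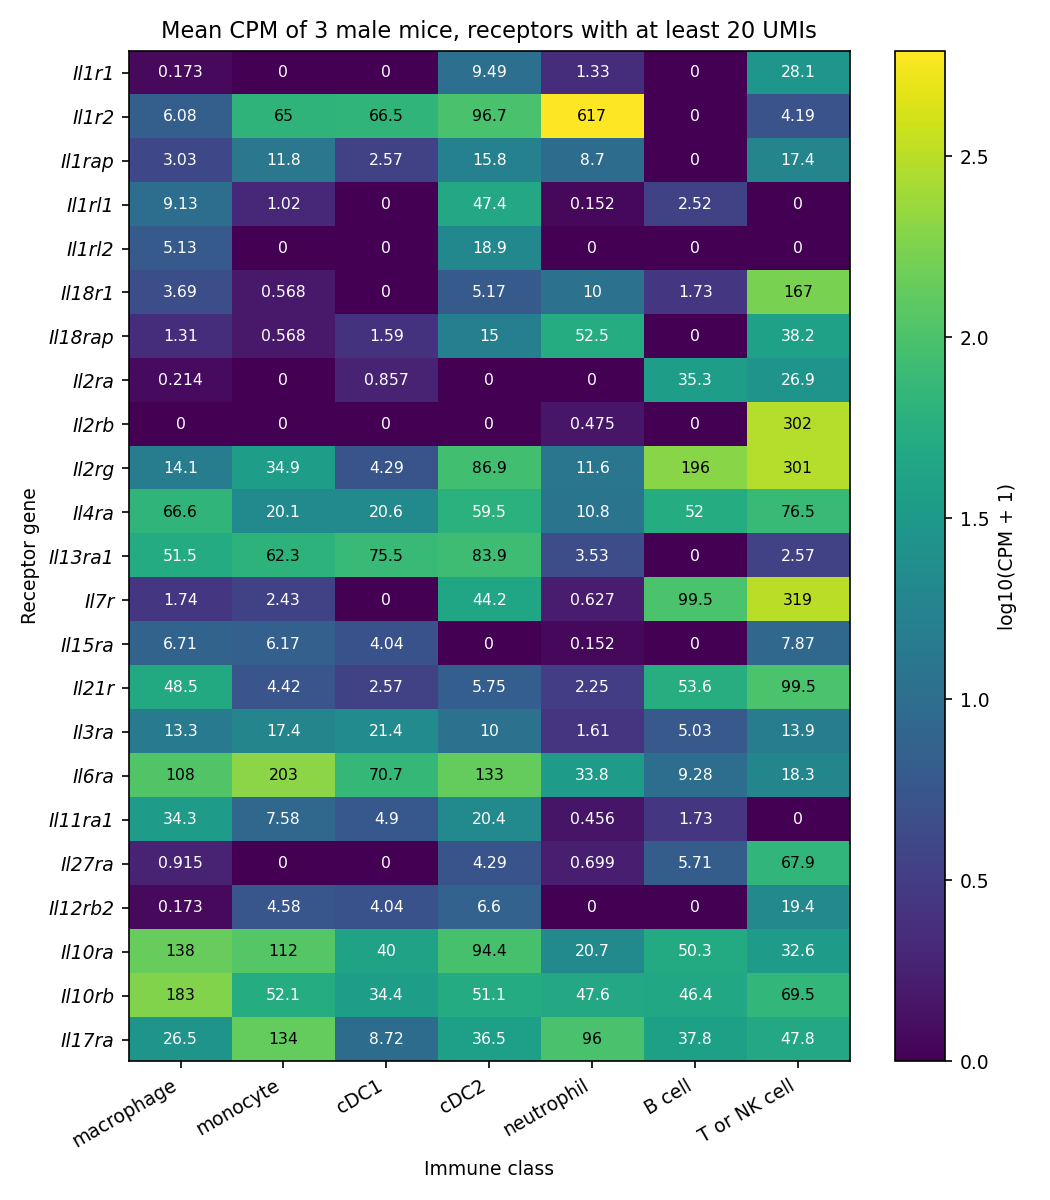
Mean CPM over the 3 male mice of each receptor gene with at least 20 UMIs (rows) in the 7 classes (columns), and the colour is log10(CPM + 1). Il1r2 reached 617 CPM in neutrophils, Il2rb 302 CPM in T or NK cells and Il10rb 183 CPM in macrophages.

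In the IL-1 family, UMIs of the decoy receptor lay mostly in neutrophils and those of the signalling receptor were few in every class. Il1r2, whose product binds IL-1 without signalling, had 2107 of its 2440 UMIs in neutrophils and stood there at 513, 692 and 646 CPM in males 1, 2 and 3 (adjusted p = 6.33e-25). All 3 values lay far above those of every other class. Il1r2 came to 104, 66.2 and 120 CPM in cDC2, to 34.4, 95.6 and 69.5 CPM in cDC1 and to 55, 83.8 and 56.2 CPM in monocytes. These 3 classes exceeded the mean of the log levels (adjusted p = 1.27e-05, 1.24e-04 and 0.00587), but not the other classes summed per mouse, a comparison chosen after the data were seen (log2 differences of -0.34, -0.64 and -1.19). The monocytes also held neutrophil markers at 1200 to 16000 CPM, whose part in their Il1r2 level was not tested. Macrophages stayed at 4.9, 7.92 and 5.41 CPM. B cells, whose neutrophil markers stood at 1620 to 1690 CPM, held 0 Il1r2 UMIs, which allows up to 6.79 CPM. Within neutrophils, the late group marked by Asprv1 and Cxcr2 reached 964, 1570 and 1290 CPM and the group marked by Ly6g, Mmp8 and Ltf 327, 270 and 417 CPM, without overlap. Median depth was 3185 UMIs in cells of the late group and 9947 in the Ly6g group. Its part in the CPM difference was not tested.

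Il1r1, the signalling IL-1 receptor, had 32 UMIs, of which 12 lay in 6 of 14 T cells marked by Trdc, a gamma delta T cell gene (277, 106 and 186 CPM, the second from 2 cells). Macrophages, which held Il1b itself at 3080, 3340 and 3010 CPM, had 3 Il1r1 UMIs among 13129094. The authors reported signs of gene expression induced by the digestion, above all in macrophages, and its part in the Il1b level was not tested. The accessory chain Il1rap, shared by the IL-1, IL-33 and IL-36 receptors, was sparse throughout: its 118 UMIs gave 9.97, 8.38 and 7.75 CPM in neutrophils, 20.8, 18.1 and 8.57 CPM in cDC2 and 2.45, 2.55 and 4.09 CPM in macrophages. T or NK cells, at 23.1, 0 and 29.2 CPM from 9 UMIs, and monocytes, at 6.11, 22.4 and 6.81 CPM, overlapped with these. Neither gene passed the filter for a test.

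Il1rl1, the IL-33 receptor known as ST2, marked innate lymphoid cells and, at a lower level, cDC2. The 49 innate lymphoid cells, which lie outside the 7 classes, held 71 of its 234 UMIs (233, 386 and 461 CPM). It came to 48.5, 42.1 and 51.4 CPM in cDC2 and to 7.97, 11 and 8.44 CPM in macrophages, and the other classes had at most 1 UMI each. Il1rl2, the IL-36 receptor, had 69 UMIs, of which 53 lay in macrophages (6.13, 7.41 and 1.85 CPM) and 11 in cDC2 (6.93, 24.1 and 25.7 CPM), with 0 in the other 5 classes. Its values in these classes overlapped. The related Il1rapl1, a synaptic protein gene, had 5 UMIs, all in the 13 cells resembling Schwann or satellite cells.

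Both chains of the IL-18 receptor were called higher in T or NK cells and in neutrophils. Il18r1, which binds IL-18, was at 146, 243 and 112 CPM in T or NK cells (adjusted p = 4.65e-12) and at 8.54, 14.7 and 6.84 CPM in neutrophils, where it was called higher too (adjusted p = 8.51e-04). Il18rap, the accessory chain needed for signalling, was at 48.4, 62.9 and 46.1 CPM in neutrophils (adjusted p = 3.70e-14) and at 23.1, 72 and 19.5 CPM in T or NK cells (adjusted p = 3.34e-04). These ranges overlapped in CPM, which leave out the TMM factors, the scaling between sums used in the test. Those factors, 0.48 to 0.589 in neutrophils and 1.21 to 1.31 in T or NK cells, place neutrophils higher relative to T or NK cells than CPM do. The call of Il18rap in T or NK cells was lost against the other classes summed (log2 1.27, adjusted p = 0.0914), and without the cells marked by Scrublet, a doublet caller, the gene no longer passed the filter. Il18rap had passed it only through its values in neutrophils and T or NK cells, so both higher calls followed in part from the filter. Neutrophils held 165 of the 254 Il18rap UMIs and 28 of the 178 Il18r1 UMIs. Both neutrophil groups carried Il18rap, at 68.5, 97 and 74.3 CPM in the late group and 40.2, 46.5 and 35.9 CPM in the Ly6g group. With library size alone as the scaling, the call of Il18r1 in neutrophils was lost (adjusted p = 0.064), as it was in female mice.

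Il18r1 and Il18rap are neighbours on the plus strand of chromosome 1. They close a run of 6 IL-1 receptor family genes, Il1r2, Il1r1, Il1rl2, Il1rl1, Il18r1 and Il18rap, which covers chr1:40074079-40551705 (GRCm38) with no other protein-coding gene inside its 478 kb. The class, of the 7, with the highest mean level in males was cDC2 for both of the neighbours Il1rl2 and Il1rl1. It was neutrophils for Il1r2 and Il18rap and T or NK cells for Il1r1 and Il18r1, so the other neighbours differed. By UMIs, T or NK cells held 69 and macrophages 45 of the 178 of Il18r1. The 250 bases before the start of Il18rap lie at chr1:40515112-40515361 on the plus strand (RefSeq, GRCm38.p6). They are shown because this gene was called higher in neutrophils and in T or NK cells. Capitals mark GAGGAAGT, a PU.1 or Ets core searched on both strands, 79 to 72 bases before the start. This sequence occurs in 2.44% of 32851 promoters of that length and in 1 of the 28 receptor genes with a promoter in the table, which is a description and not a binding site.
Il18rap promoter: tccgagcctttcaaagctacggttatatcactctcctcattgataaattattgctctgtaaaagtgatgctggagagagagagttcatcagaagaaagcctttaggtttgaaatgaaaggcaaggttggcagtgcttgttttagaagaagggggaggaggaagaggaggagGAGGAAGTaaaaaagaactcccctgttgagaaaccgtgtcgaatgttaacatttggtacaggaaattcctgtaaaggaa

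**Figure D2:**
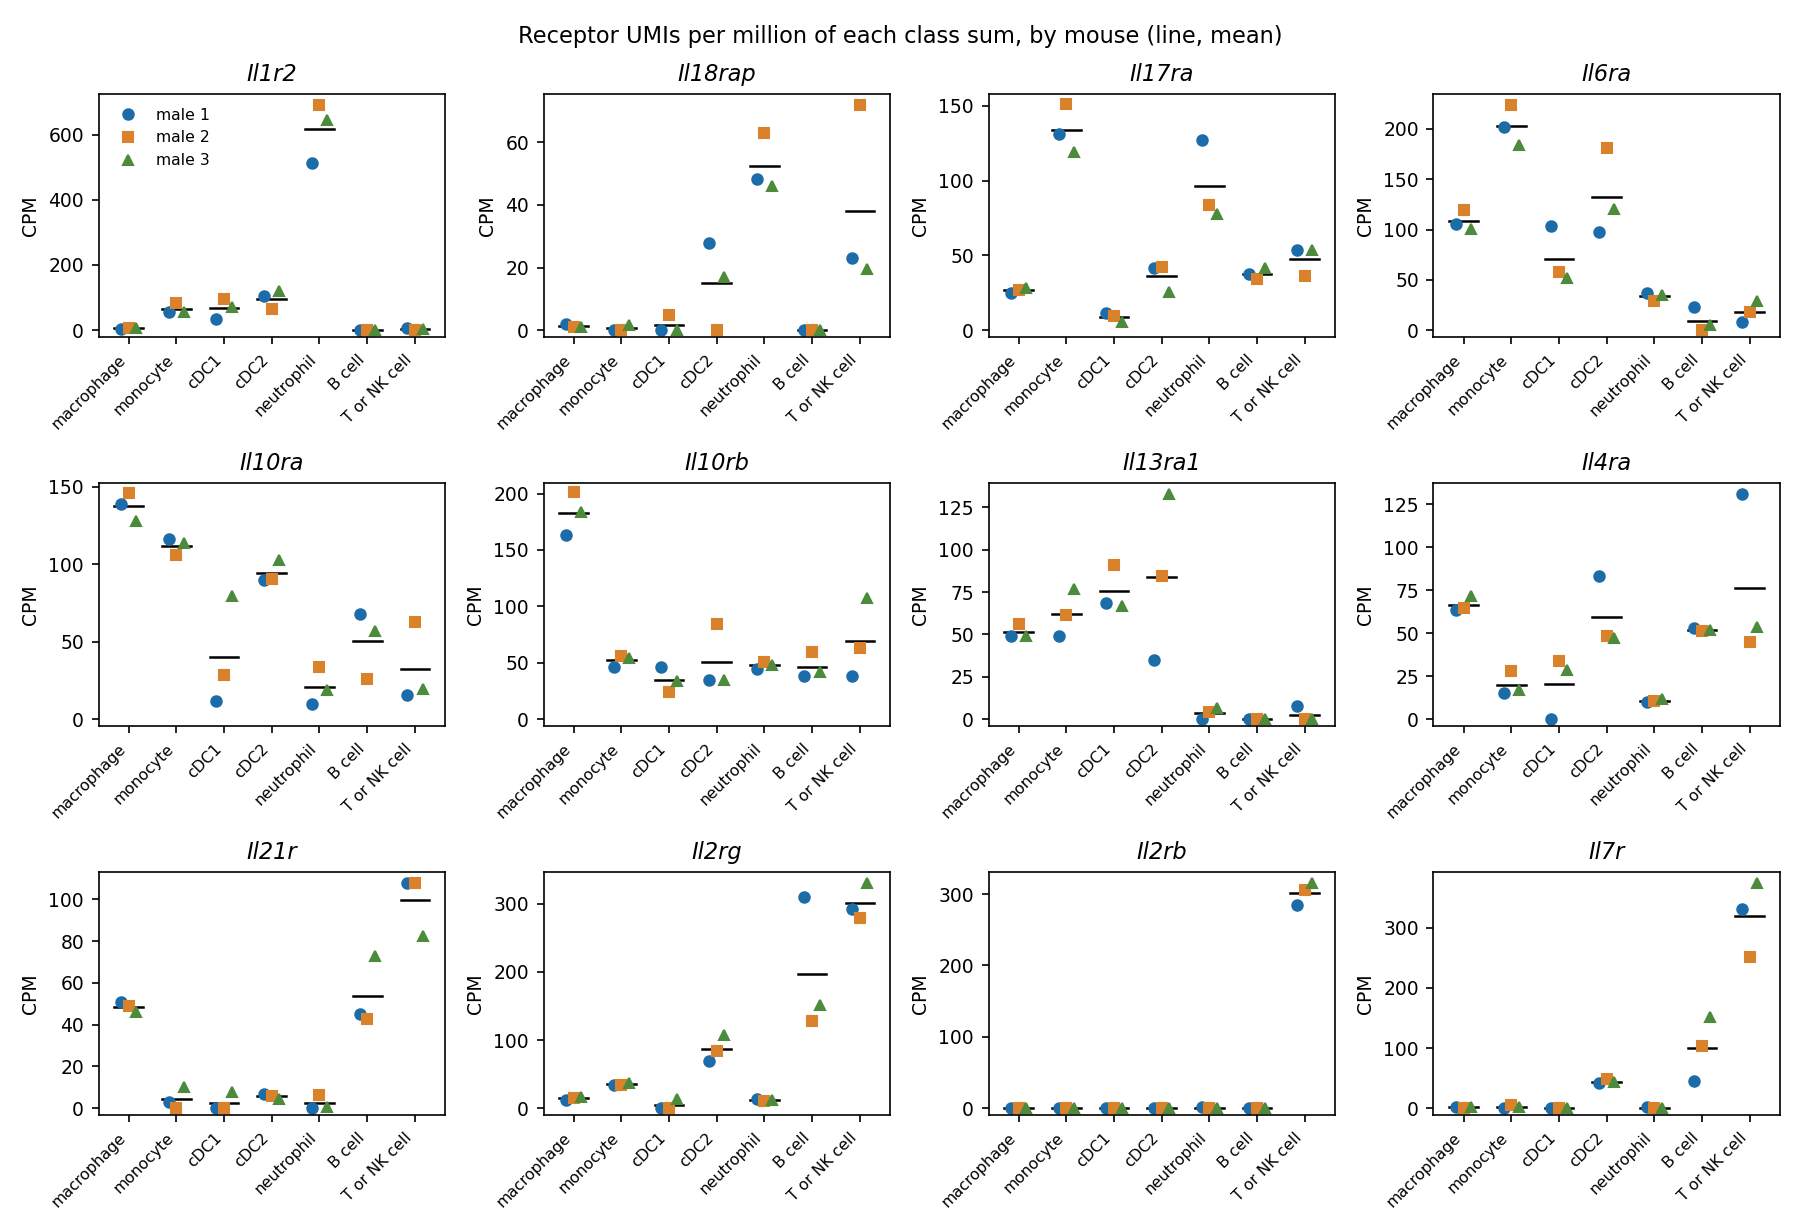
CPM of 12 receptor genes in the 7 classes. Each point is 1 male mouse and each line the mean of 3. Il1r2, Il2rb and Il10rb each had 1 class whose 3 values lay above all others, whereas the Il4ra values of T or NK cells ranged from 45 to 131 CPM.

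Il2rg, the common gamma chain, was on average higher in lymphocytes than in myeloid cells. It was at 293, 279 and 331 CPM in T or NK cells (log2 difference from the mean of the other classes 2.95, SE 0.22, adjusted p = 1.47e-12) and at 310, 128 and 151 CPM in B cells (2.12, SE 0.25, adjusted p = 3.51e-08). Among myeloid cells it was raised in cDC2, at 69.3, 84.3 and 107 CPM (1.16, SE 0.30, adjusted p = 0.00333), and low in macrophages, at 11.6, 14.3 and 16.5 CPM (-1.71, SE 0.26, adjusted p = 1.82e-06). In CPM, every lymphocyte value lay above every myeloid value. The TMM factors, 1.3 to 1.35 in B cells and 1.04 to 1.06 in cDC2, place B cells lower relative to cDC2. On that scale the values of B cells and cDC2 overlapped. An overlapping gene model on the same strand, Gm20489, could share its reads, so Il2rg levels are uncertain to that extent.

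Il2rb, the beta chain through which IL-2 and IL-15 signal, lay almost wholly in T or NK cells among the 7 classes. They held 136 of the 137 UMIs found in the 7 classes, at 285, 306 and 316 CPM (adjusted p = 2.58e-14), and 112 of these lay in the 36 NK cells (684, 588 and 636 CPM). Macrophages had 0 Il2rb UMIs among 13129094, which allows up to 0.229 CPM. Il2ra, the chain that gives IL-2 high affinity, had 54 UMIs and marked other cells: 29.1, 129 and 128 CPM in innate lymphoid cells, 55.5, 106 and 186 CPM in Trdc T cells and 30.2, 34.2 and 41.5 CPM in B cells. Il15ra, which presents IL-15 to neighbouring cells, had 92 of its 119 UMIs in macrophages (6.74, 5.62 and 7.78 CPM), and monocytes overlapped with them at 6.11, 5.59 and 6.81 CPM, as did T or NK cells at 0, 9 and 14.6 CPM.

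Il7r, the IL-7 receptor of developing and resting lymphocytes, was at 331, 252 and 375 CPM in T or NK cells (adjusted p = 3.67e-16), at 45.3, 103 and 151 CPM in B cells (adjusted p = 6.03e-09) and at 41.6, 48.1 and 42.9 CPM in cDC2 (adjusted p = 8.30e-05). The cDC2 level contrasts with 0 UMIs in cDC1 (up to 4.38 CPM allowed) and with 1.84, 1.02 and 2.37 CPM in macrophages. Within lymphocytes, Trdc T cells reached 998, 1600 and 1120 CPM and innate lymphoid cells 582, 729 and 1010 CPM, while NK cells stood at 304, 101 and 54.1 CPM. Il9r, another partner of the common gamma chain, had 10 UMIs, 9 of them in innate lymphoid cells.

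Il21r, the IL-21 receptor, was found in lymphocytes and, among myeloid cells, in macrophages. It was at 108, 108 and 82.7 CPM in T or NK cells (log2 3.03, SE 0.38, adjusted p = 7.99e-08), at 45.3, 42.8 and 72.7 CPM in B cells (2.05, SE 0.44, adjusted p = 3.01e-04) and at 50.9, 48.8 and 45.9 CPM in macrophages (2.29, SE 0.24, adjusted p = 1.30e-09). Monocytes were at 3.06, 0 and 10.2 CPM, and cDC1, cDC2 and neutrophils at 0 to 7.72 CPM, so that no other myeloid value reached the macrophages. Against the other classes summed, the B cell difference was gone (log2 0.05).

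The promoters of Il21r and Il2rg, the chains of the IL-21 receptor, are shown next because both hold TGTGGT, the core letters of RUNX motifs, searched on both strands. The windows are the 250 bases before each start, chr7:125603179-125603428 on the plus strand and chrX:101268256-101268505 on the minus strand (RefSeq, GRCm38.p6). Capitals mark the motif, 33 to 28 bases before the Il21r start, where it reads on the reverse strand, and 227 to 222 bases before the Il2rg start. TGTGGT occurs in 14% of all promoters of that length, so its presence is common. Of the 28 receptor genes with a promoter, which have 34 promoters, 6 hold it in at least 1 promoter.
Il21r promoter: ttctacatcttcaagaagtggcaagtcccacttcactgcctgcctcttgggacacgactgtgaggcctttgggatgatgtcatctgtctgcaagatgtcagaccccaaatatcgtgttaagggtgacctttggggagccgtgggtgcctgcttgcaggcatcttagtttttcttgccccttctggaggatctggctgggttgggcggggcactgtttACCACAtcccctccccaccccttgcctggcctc
Il2rg promoter: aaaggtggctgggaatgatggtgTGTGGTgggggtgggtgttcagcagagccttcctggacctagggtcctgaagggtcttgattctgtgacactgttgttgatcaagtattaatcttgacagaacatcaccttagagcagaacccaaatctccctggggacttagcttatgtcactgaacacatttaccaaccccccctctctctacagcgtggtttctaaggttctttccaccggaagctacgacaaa

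Of the IL-4 and IL-13 receptor chains, Il4ra was found in lymphocytes and myeloid cells alike and Il13ra1 mostly in myeloid cells. Il4ra, common to both cytokines and another partner of the common gamma chain, was at 63.7, 64.4 and 71.7 CPM in macrophages (log2 1.09, SE 0.16, adjusted p = 6.18e-07), at 52.9, 51.4 and 51.9 CPM in B cells and at 83.2, 48.1 and 47.1 CPM in cDC2, and cDC1 had 0, 33.5 and 28.3 CPM. It was lower in monocytes, at 15.3, 27.9 and 17 CPM (-1.40, SE 0.33, adjusted p = 0.00102), and in neutrophils, at 9.97, 10.5 and 11.9 CPM (-0.89, SE 0.27, adjusted p = 0.00509). T or NK cells were called higher (0.83, SE 0.31, adjusted p = 0.0341) on values of 131, 45 and 53.5 CPM, and this call was lost without male 1 (0.27, adjusted p = 0.657), without male 3 (1.11, adjusted p = 0.0564), without the filter (adjusted p = 0.193), in female mice (adjusted p = 0.256) and against the other classes summed (log2 0.02). Il4ra lies 24.0 kb before Il21r on chromosome 7.

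Il13ra1, which completes the receptor for IL-13, lay, within the 7 classes, in macrophages, monocytes and dendritic cells apart from 16 UMIs in neutrophils and 1 in T or NK cells. It was at 49, 56.4 and 48.9 CPM in macrophages (adjusted p = 1.80e-06) and at 48.9, 61.5 and 76.6 CPM in monocytes (adjusted p = 9.71e-05). In cDC1 it was at 68.8, 90.8 and 66.9 CPM and in cDC2 at 34.7, 84.3 and 133 CPM (adjusted p = 7.90e-06 and 5.58e-06). Against the other classes summed, the calls in monocytes (log2 0.39, adjusted p = 0.257) and cDC2 (0.99, adjusted p = 0.0706) were lost, and the monocyte call was also lost in female mice (adjusted p = 0.382). These 4 classes overlapped, whereas B cells held 0 UMIs (up to 6.79 CPM allowed) and neutrophils 0, 4.19 and 6.38 CPM.

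The receptors that signal through gp130 were led by Il6ra, the binding chain for IL-6. Il6ra was at 202, 224 and 184 CPM in monocytes (log2 1.96, SE 0.19, adjusted p = 9.22e-10), at 97.1, 181 and 120 CPM in cDC2 (1.45, SE 0.25, adjusted p = 4.69e-05) and at 105, 119 and 101 CPM in macrophages (1.27, SE 0.17, adjusted p = 1.08e-07). In CPM, all monocyte values exceeded the others, the closest being 184 in monocytes of male 3 and 181 in cDC2 of male 2. The TMM factors, 1.14 to 1.2 in monocytes and 1.04 to 1.06 in cDC2, place monocytes lower relative to cDC2. On that scale the values of monocytes and cDC2 overlapped. In female mice the calls in monocytes (adjusted p = 0.481) and cDC2 (adjusted p = 0.106) were lost, and the cDC2 call was lost also against the other classes summed (log2 0.37, adjusted p = 0.329). B cells were low, at 22.7, 0 and 5.19 CPM (-3.37, SE 0.50, adjusted p = 2.11e-06), as were T or NK cells, at 7.7, 18 and 29.2 CPM (-1.98, SE 0.44, adjusted p = 5.59e-04). The 9 UMIs of the latter all lay in the T cells.

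Il11ra1, the IL-11 receptor, had 446 of its 532 UMIs in macrophages, at 34.3, 35.5 and 33.1 CPM, against 3.06, 11.2 and 8.51 CPM in monocytes and 27.7, 12 and 21.4 CPM in cDC2. It did not pass the filter for the class comparison. The 3 annotated genes named Il11ra2, which resemble it closely, had 0 UMIs in the larger matrix, and the gene model of Galt overlaps it on the same strand, so its level is uncertain. Il27ra, the IL-27 receptor, was at 69.3, 81 and 53.5 CPM in T or NK cells (adjusted p = 9.90e-08), with 29 of its 66 UMIs there and 16 in innate lymphoid cells. Il31ra, the IL-31 receptor, had 4 UMIs.

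The chains for IL-12, IL-23, IL-3 and IL-5 were sparse. Il12rb2 had 26 UMIs, with 7.7, 36 and 14.6 CPM in T or NK cells, the partner Il12rb1 12 UMIs and Il23r 3 UMIs, the latter all in T or NK cells. Il5ra, which marks eosinophils and some B cells, had 12 UMIs, 9 of them in B cells (45.3, 0 and 15.6 CPM). Il3ra, the IL-3 receptor, had 305 UMIs and overlapping levels in the myeloid classes other than neutrophils: 10.4, 14.8 and 14.8 CPM in macrophages, 18.3, 16.8 and 17 CPM in monocytes, 34.4, 14.3 and 15.4 CPM in cDC1 and 6.93, 6.02 and 17.1 CPM in cDC2. T or NK cells overlapped with these at 23.1, 9 and 9.73 CPM, and neutrophils were at 0, 2.1 and 2.74 CPM. None of these genes passed the filter for a test.

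Both chains of the IL-10 receptor had their highest male levels in macrophages. Il10rb, a chain it shares with the receptors for IL-22 and related cytokines, was at 163, 201 and 184 CPM in macrophages (log2 1.96, SE 0.13, adjusted p = 4.48e-14). In none of the other classes did a mouse exceed 107 CPM, the value of T or NK cells in male 3. Il10ra, the chain specific to IL-10, was at 139, 146 and 128 CPM in macrophages (1.49, SE 0.16, adjusted p = 2.19e-09), at 116, 106 and 114 CPM in monocytes (0.84, SE 0.23, adjusted p = 0.00502) and at 90.1, 90.3 and 103 CPM in cDC2. It was low in neutrophils, at 9.97, 33.5 and 18.7 CPM (-0.80, SE 0.27, adjusted p = 0.00851), and in T or NK cells, at 15.4, 63 and 19.5 CPM (-1.53, SE 0.42, adjusted p = 0.00424). The monocyte call was lost against the other classes summed (log2 -0.14) and in female mice.

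The direction of Il10rb in neutrophils depended on scaling: at 44.1, 50.3 and 48.3 CPM it was called higher with TMM factors (log2 0.70, adjusted p = 0.00132) and lower with library size alone (-0.41, adjusted p = 0.0445). The TMM factors of the neutrophil sums were 0.48 to 0.589, and without them the median log2 difference of all genes in neutrophils was -1.10. An overlapping gene model, Gm21970, shares the Il10rb strand. Il20rb, a chain of IL-20 family receptors, had 4 UMIs, and of the symbols outside the 34, Il22ra1 had 0 UMIs and Il20ra 2 UMIs in the larger matrix.

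Il17ra, the chain common to IL-17 receptors, was called higher in monocytes and neutrophils. It was at 131, 151 and 119 CPM in monocytes (log2 1.71, SE 0.19, adjusted p = 1.01e-08) and at 127, 83.8 and 77.5 CPM in neutrophils (2.48, SE 0.16, adjusted p = 7.86e-15). These ranges overlapped in CPM, which leave out the TMM factors of the test. Those factors, 1.14 to 1.2 in monocytes and 0.48 to 0.589 in neutrophils, place neutrophils higher relative to monocytes than CPM do. The monocyte call was lost in female mice (adjusted p = 0.282). Macrophages were at 24.5, 27.1 and 28 CPM (-0.61, SE 0.19, adjusted p = 0.00755) and cDC1 at 11.5, 9.56 and 5.14 CPM (-2.75, SE 0.44, adjusted p = 7.92e-06). The partner chains were nearly unseen: Il17rc had 7 UMIs, 4 of them in fibroblast-like cells, Il17rb 12 UMIs, 8 of them in innate lymphoid cells, Il17rd 3 UMIs and Il17re 1 UMI.

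**Figure D3:**
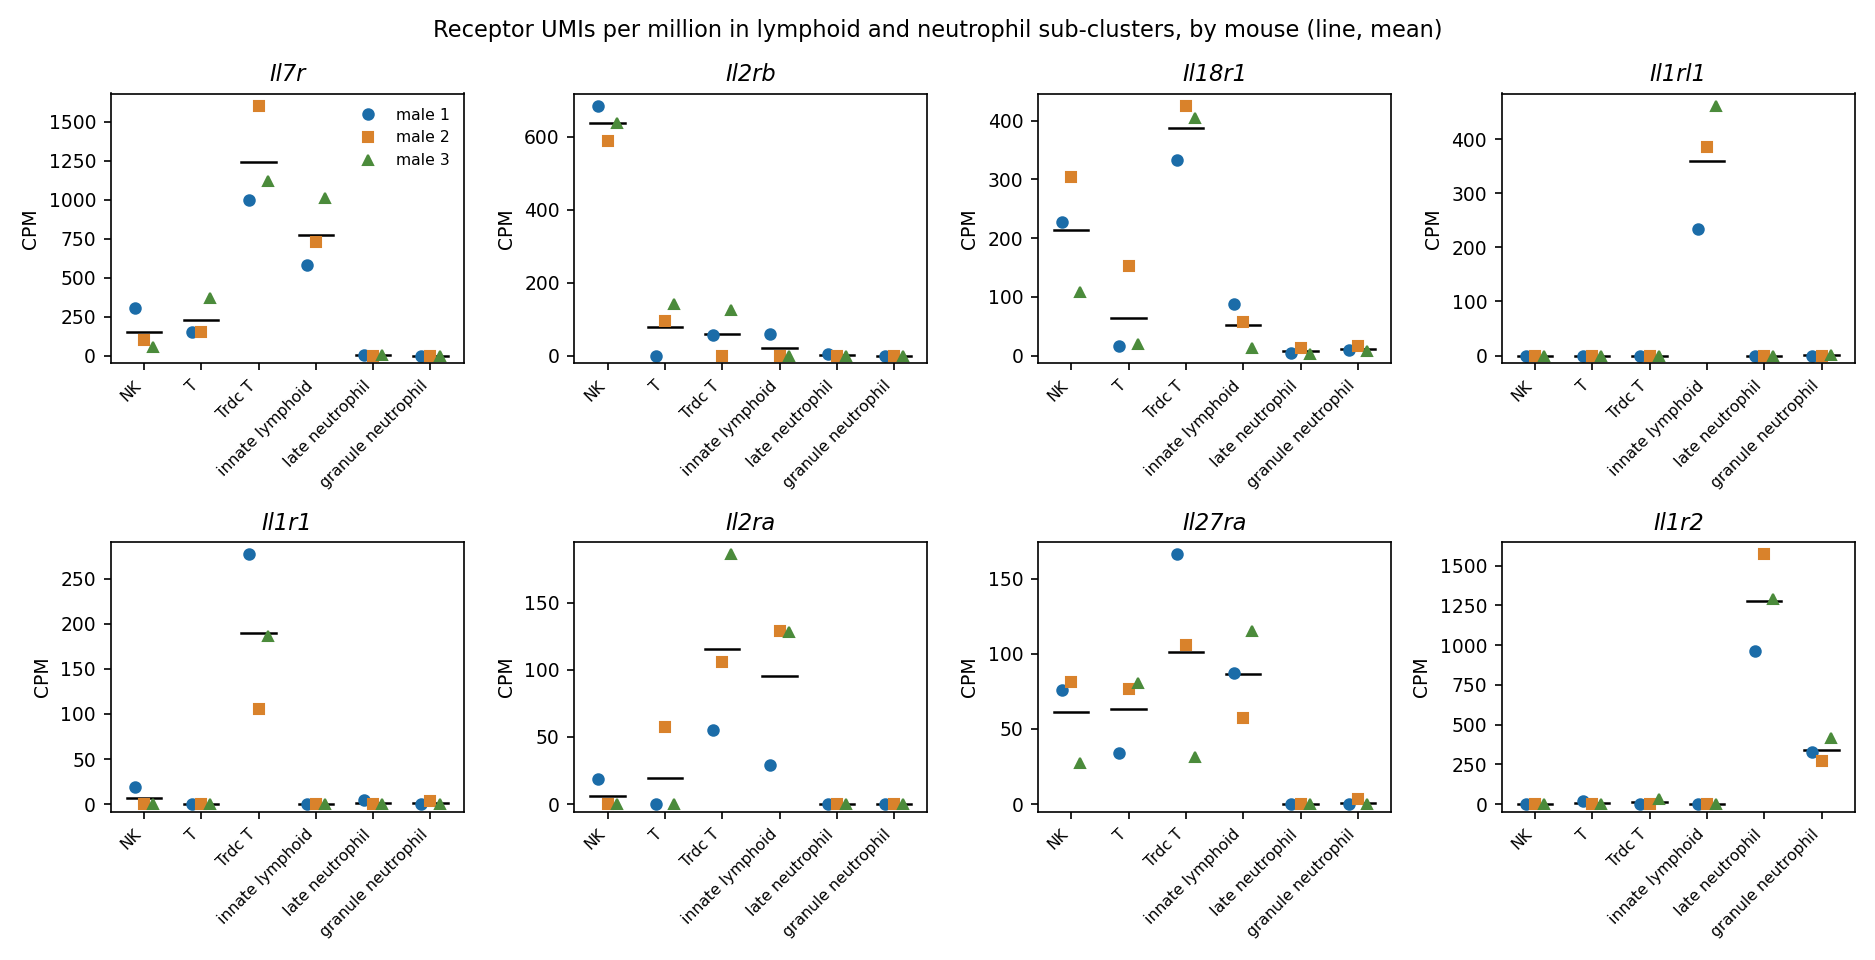
CPM of 8 receptor genes in 4 lymphoid and 2 neutrophil groups. Each point is 1 male mouse and each line the mean of 3. Il2rb was highest in NK cells, Il7r in Trdc T cells, Il1rl1 in innate lymphoid cells and Il1r2 in late neutrophils. The Trdc T point of male 2 rests on 2 cells.

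Detection of every chain of a receptor in 1 cell was counted as the share of cells with a UMI of each, at full depth and after thinning each cell to 2000 UMIs, since median depth ran from 3203.5 UMIs in B cells to 14120 in cDC1. Such a share limits detection only, since a cell that expresses a chain may show no UMI and free RNA can give a UMI to a cell that does not. As a guide to the latter, Il2rb had a UMI in 0 of 1490 macrophages and 0.2% of neutrophils, Il7r in 1.14% of macrophages and 0.4% of neutrophils, and Il13ra1 in 0 of 134 B cells and 1.06% of T or NK cells. These genes had 161, 527 and 894 UMIs in all, so they do not cover more abundant chains. Il1r2, with 2107 UMIs in neutrophils, had a UMI in 3.83% of macrophages and in 0 of 134 B cells. The part of free RNA in these shares, and in those of Il10ra and Il10rb outside macrophages, was not tested. Whether chains of a receptor met in a cell more often than their single shares imply was not tested. In macrophages, Il10ra had a UMI in 65.2% of cells and Il10rb in 75.7%. Both IL-10 chains were found in 743 of 1490 macrophages (49.9%, exact 95% interval 47.3 to 52.4), the share being 51.4%, 47.6% and 51% in males 1, 2 and 3. The share was 36.6% in cDC2 (interval 22.1 to 53.1), which overlaps with that of macrophages. It was 24.3% in monocytes (16.5 to 33.5) and 13.7% in cDC1 (5.7 to 26.3). Median depths were 13351, 10593 and 14120 UMIs in cDC2, monocytes and cDC1, against 8559.5 in macrophages. The intervals pool the cells of all male mice and leave out the spread between mice, so they do not test a difference between classes. B cells gave 0.746%, T or NK cells 3.19% and neutrophils 3.2%, at median depths of 3203.5, 4624.5 and 5305.5 UMIs. After thinning, macrophages gave 7.99%, neutrophils 0.858% and the other 5 classes at most 1.96%. Fcrls-only macrophages gave 52.9% (8.48% thinned) and Ccr2-only macrophages 45.1% (6.29% thinned).

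The IL-2 and IL-15 signalling pair, Il2rb with Il2rg, was found in 40 of 94 T or NK cells (42.6%, exact interval 32.4 to 53.2) and in 0 cells of the other 6 classes, of which the 1490 macrophages allow up to 0.201% of cells with a UMI of both. Among NK cells it was 28 of 36 (77.8%), and 36.1% after thinning. The IL-7 pair, Il7r with Il2rg, was found in 30.9% of T or NK cells (18.5% thinned), in 59.2% of innate lymphoid cells (36.6% thinned) and in 0.336% of macrophages. Its share of 24.4% in cDC2 fell to 0 of 41 thinned cells, which allows up to 7.32% of cells with a UMI of both at that depth.

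The type II receptor for IL-4 and IL-13, Il4ra with Il13ra1, was found in 29.3% of cDC2 (7.32% thinned), 14.6% of macrophages (1.38% thinned) and 9.35% of monocytes (1.92% thinned), and in 0 B cells. The IL-6 pair, Il6ra with Il6st, was found in 19.6% of monocytes and 9.93% of macrophages (2.88% and 0.965% thinned), with 0 B cells and 0.2% of neutrophils. Il18r1 and Il18rap met in 6 of 36 NK cells (16.7%) and in 9 of 500 neutrophils (1.8%), the latter share being 0 after thinning. Il1r1 met Il1rap in 1 cell, a cDC2. The pairs for IL-17A, IL-25, IL-17C and IL-23 were found in 0 cells. For 107 monocytes this allows up to 2.8% of cells with a UMI of both, and for 500 neutrophils up to 0.6%, which does not limit the share of cells that express both.

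**Figure D4:**
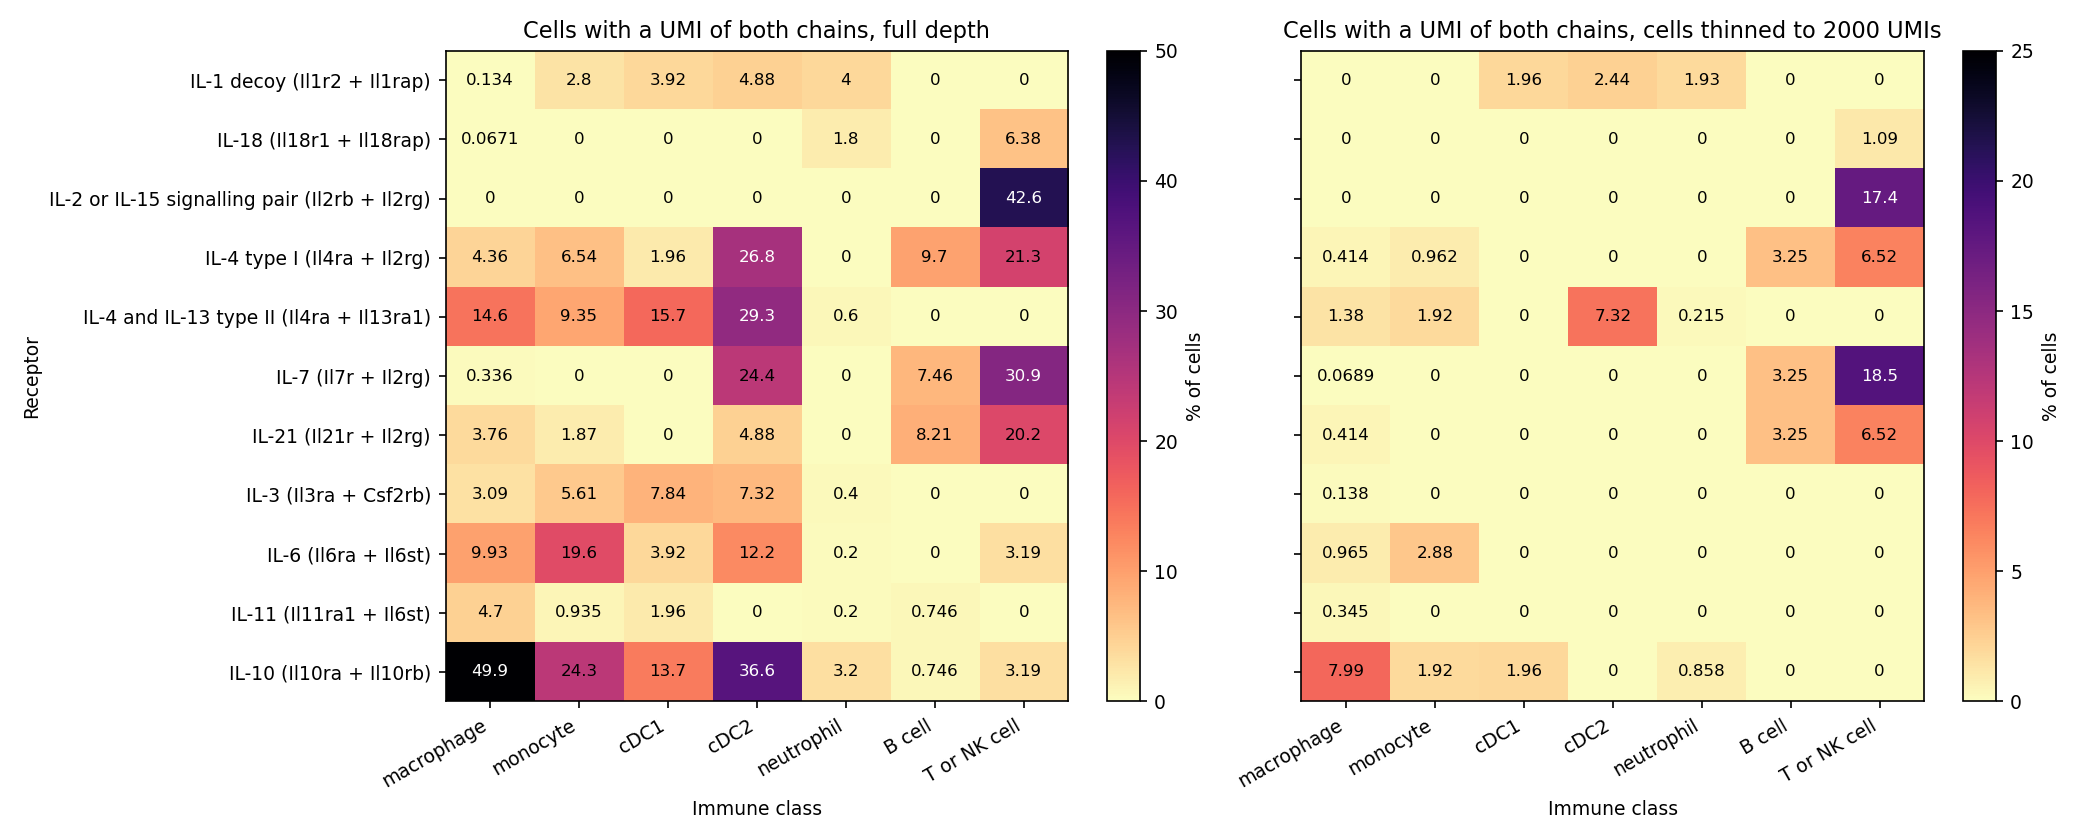
Share of cells (%) with a UMI of both chains of 11 receptors (rows) in the 7 classes (columns), at full depth on the left and with each cell thinned to 2000 UMIs on the right, each panel with its own colour scale. The IL-10 pair in macrophages fell from 49.9% to 7.99% and the IL-2 or IL-15 pair in T or NK cells from 42.6% to 17.4%.

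Macrophages were then divided by UMIs of Fcrls and Ccr2, the genes that separate the main macrophage subsets of the DRG: 671 cells had Fcrls alone, 164 had Ccr2 alone, 578 had both and 77 neither. Between Fcrls-only and Ccr2-only macrophages, 10 of the 34 receptor genes were tested, and 1 differed, against 10.5% of 5826 genes (edgeR, 3 mice in each group). Their median log2 difference was -0.18, beside 0.00 over all genes tested. The gene that differed was Il2rg, lower in Fcrls-only cells (log2 -1.17, SE 0.36, adjusted p = 0.0407). Its values were 8.92, 15.5 and 11.7 CPM in Fcrls-only and 10.6, 18.9 and 35.3 CPM in Ccr2-only cells, so the groups overlapped although each mouse had the higher value in Ccr2-only cells. The call was lost without male 1 (adjusted p = 0.0747), and without male 2 or male 3 the gene no longer passed the filter on low counts.

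The other 9 genes tested had smaller log2 differences. Of those too sparse to test, Il7r was at 0, 1.03 and 1.89 CPM in Fcrls-only and 10.6, 2.7 and 3.92 CPM in Ccr2-only cells, without overlap but from 8 and 6 UMIs, and Il18rap at 1.49, 1.03 and 0.631 CPM against 5.29, 2.7 and 1.31 CPM from 5 and 3 UMIs. Il10rb was at 190, 225 and 217 CPM in Fcrls-only and at 132, 143 and 150 CPM in Ccr2-only cells, without overlap, but missed the threshold (log2 0.45, SE 0.15, adjusted p = 0.0566). With mouse as replicate block, 2 genes were called, Il2rg and Il10rb, and with library size as the only scaling also 2, Il10rb and Il21r. Il21r was at 58, 55.1 and 54.9 CPM against 42.3, 37.8 and 28.8 CPM, also without overlap (0.62, SE 0.23, adjusted p = 0.0969). Cells with both genes lay between the groups in each mouse, at 151, 184 and 165 CPM of Il10rb and 44.1, 41.9 and 41.4 CPM of Il21r. Il10ra showed the opposite sign, with 122, 145 and 127 CPM in Fcrls-only and 175, 176 and 133 CPM in Ccr2-only cells (-0.34, SE 0.17, adjusted p = 0.237).

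For Il17ra the difference was -0.63 (SE 0.26), for Il6ra -0.38 (SE 0.17) and for Il11ra1 0.64 (SE 0.30), with adjusted p of 0.162, 0.182 and 0.222. At an unadjusted p under 0.05, 6 of the 10 genes passed, where 21.8% of all genes tested did, and DESeq2 called 0. Il13ra1 (0.24, interval -0.27 to 0.74), Il4ra (-0.22, interval -0.60 to 0.16) and Il3ra (-0.15, interval -0.93 to 0.63) had intervals that include 0. Among the 5 macrophage clusters, Il10rb stood at 220, 234 and 230 CPM in the largest, of 743 cells led by Ccl24 and Egfl7, and at 121, 154 and 149 CPM in the next, of 560 cells led by Tnfsf9 and Cxcl14.

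**Figure D5:**
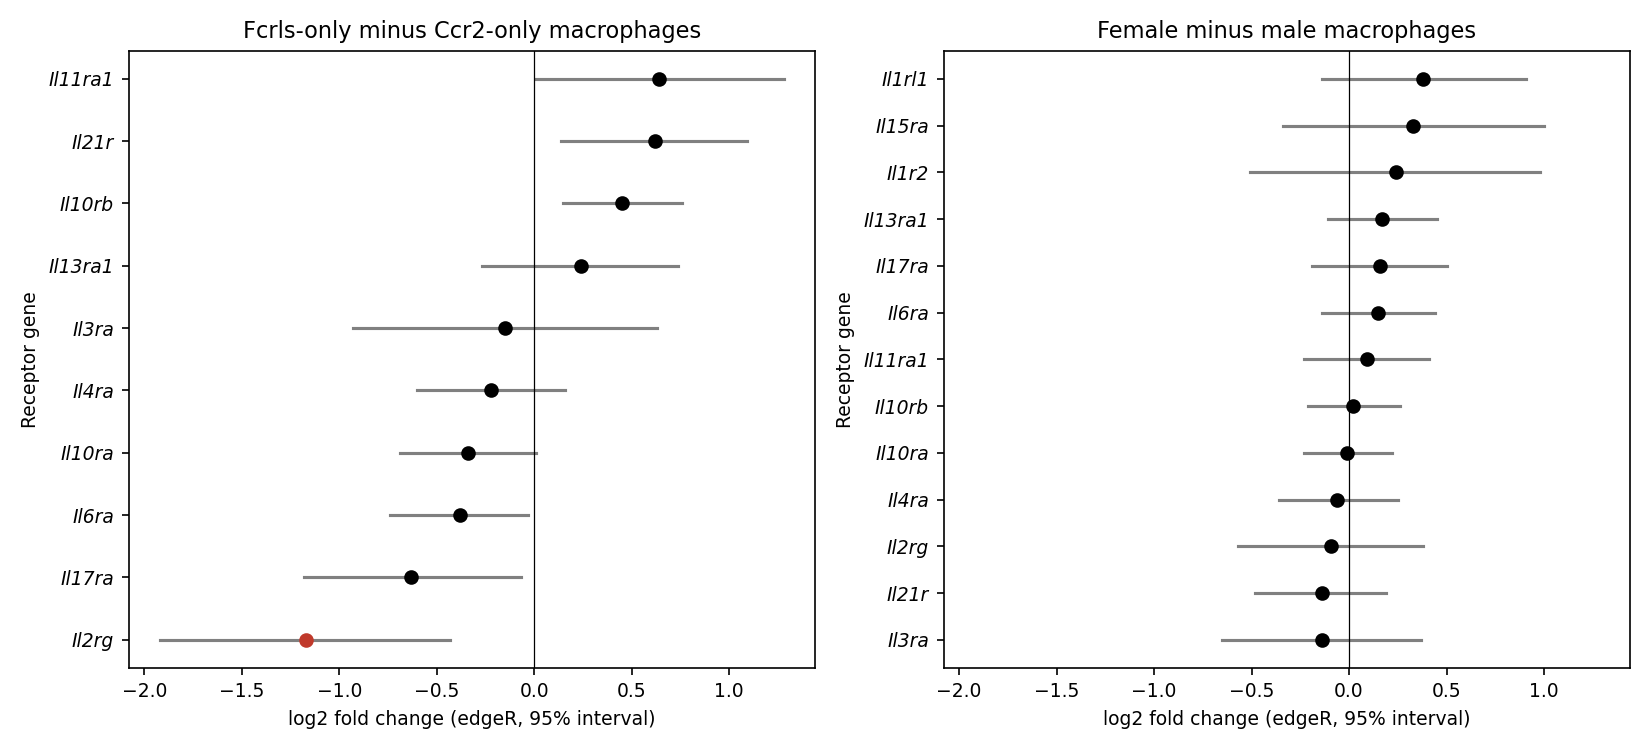
log2 fold change (points, edgeR) with 95% interval (bars) of the receptor genes tested, Fcrls-only minus Ccr2-only macrophages of 3 male mice on the left and female minus male macrophages on the right. Red marks an adjusted p under 0.05. On the left Il2rg alone is red, and on the right every interval includes 0.

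Female and male macrophages were compared over 3 mice of each sex. Of the 34 genes, 13 were tested and 0 were called, where 0.0872% of 8030 genes were (edgeR), 0 had an unadjusted p under 0.05 and DESeq2 called 0. The differences, female minus male, ran from -0.14 to 0.38 on the log2 scale, with a median of 0.09 beside 0.00 over all genes. Il10ra, for example, was at 136, 136 and 137 CPM in females 1, 2 and 3, with a difference of -0.01 (interval -0.23 to 0.22), and Il1rl1 had the largest, 0.38 (interval -0.14 to 0.91). The difference between Fcrls-only and Ccr2-only cells was also compared between the sexes, and 0 of 10 receptor genes differed (edgeR, 0 also at an unadjusted p under 0.05). Of all 6223 genes in that fit 0 were called, so the count says nothing particular about the receptors.

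Female cells, assigned to the class they resembled most, gave the same class with the highest mean level as male cells for 15 of the 23 genes with at least 20 UMIs. The 8 others were Il1r1, Il2ra, Il15ra, Il13ra1, Il4ra, Il3ra, Il10ra and Il1rap. Il10ra was at 53.9, 141 and 240 CPM in female monocytes (14 cells), around the 136, 136 and 137 CPM of female macrophages. Il1r2 was at 889, 549 and 328 CPM in the neutrophils of females 1, 2 and 3 and Il10rb at 163, 185 and 208 CPM in their macrophages. In female T or NK cells Il2rb was at 168, 188 and 309 CPM and Il7r at 244, 376 and 438 CPM. Each of these values of Il1r2, Il10rb, Il2rb and Il7r lay above those of the same gene in every other female class. Il1rl1 reached 755, 364 and 297 CPM in female innate lymphoid cells. These values rest on fewer cells, with 122 neutrophils and 59 T or NK cells in the 3 females.

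Genes that act below the receptors were taken from fixed lists. Of 4 JAK kinases 2 passed the filter, among them Jak1, which serves receptors that contain the common gamma chain or gp130. Jak1 was at 431, 495 and 491 CPM in T or NK cells against at most 189 CPM in any mouse of the other classes (adjusted p = 1.04e-08). Of 7 STAT factors 4 passed, and Stat4, which acts below the IL-12 receptor, was at 177, 189 and 185 CPM in T or NK cells (adjusted p = 4.59e-13). Of 5 SOCS feedback genes 2 passed. Socs1 was at 177, 306 and 185 CPM in T or NK cells (adjusted p = 3.92e-11), and Socs3, which restrains signalling through gp130, at 386, 525 and 395 CPM in macrophages (adjusted p = 1.33e-14) and 395, 331 and 381 CPM in cDC2 (adjusted p = 1.54e-08). Each of these genes had no other class at that level except Socs3, which macrophages and cDC2 shared. Stat4 and Socs1 could pass the filter through T or NK cells alone, so their higher calls there followed in part from it. The part of digestion-induced expression in the Socs3 levels was not tested.

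Of the 6 shared chains outside the 34 genes, 3 passed the filter: 2 were called higher in macrophages and 3 in cDC2. Of all genes tested, 30.0% were called higher in macrophages and 18.3% in cDC2. Csf2rb, the beta chain of the IL-3 and IL-5 receptors, was at 111, 90.3 and 72.9 CPM in cDC2, and Lifr, a gp130 partner, at 63.1, 56.2 and 70.7 CPM in macrophages. Il6st itself did not pass, at 22.1, 28.1 and 19.8 CPM in macrophages and 30.6, 22.4 and 32.3 CPM in monocytes. Of the 9 adaptors and kinases of the IL-1 and IL-17 receptors 3 passed, with 2 called higher in monocytes, where 22.2% of all genes tested were. Myd88, the adaptor of IL-1 receptors, was at 79.5, 67.1 and 61.3 CPM there (adjusted p = 0.00496) and was lower in Fcrls-only than in Ccr2-only macrophages (log2 -0.93, SE 0.25, adjusted p = 0.018).

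Of the 27 interleukin ligands and antagonists listed, 7 passed the filter, with 5 called higher and 1 lower in macrophages. Of all genes tested there, 30.0% were called higher and 22.5% lower. Il10 was at 118, 85 and 112 CPM in macrophages, which of the 7 classes had the highest share of cells with both IL-10 chains, and at 158, 110 and 147 CPM in Fcrls-only against 5.29, 5.4 and 22.2 CPM in Ccr2-only cells (adjusted p = 2.54e-06). The antagonist Il1rn was at 124, 132 and 94.4 CPM in neutrophils, the class with the highest level of the decoy Il1r2, and at 11.6, 10.2 and 16.9 CPM in macrophages. Il12a had 59 UMIs in B cells (83.1, 188 and 135 CPM, adjusted p = 2.65e-11). Il12a could pass the filter through B cells alone, and Il10 through macrophages alone. In the comparison of macrophage groups, Il10 could pass through Fcrls-only cells alone. These higher calls followed in part from the filter and are not separate support. Between the macrophage groups, 9 of the 27 were tested and 3 were higher and 2 lower in Fcrls-only cells, where 4.53% of all genes tested were higher and 5.96% lower, among them Il18bp, which traps IL-18 (1.82, SE 0.51, adjusted p = 0.0282), and Il1a (-1.42, SE 0.44, adjusted p = 0.0449). Il3, Il9, Il17a, Il17f, Il21 and Il22 were not analysed here.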

How the data were processed

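Raw UMI counts of the 10x 3' v3 gene expression library and of the unfiltered matrix with hashtag counts were deposited by the authors, who used Cell Ranger 3.1.0 and the mm10 build per the file headers and the labels. The authors kept cells with over 200 and under 5000 genes and under 5% mitochondrial reads and assigned hashtags with HTODemux. Repeating these steps on 4395 barcodes gave 4111 cells, 3741 with 1 hashtag, of which 2668 were male and 1073 female. All 2668 barcodes of the filtered matrix are in the larger matrix, and 0 counts differed over 16798 shared symbols. All samples came from 1 lane, so p-values cover the spread between 3 mice.

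Cells were clustered in Seurat 5.3.0 (2000 variable features without the receptor genes, 15 components, Louvain resolution 0.5), 4 mixed clusters were divided again, and clusters were named from markers. Female cells took the class they resembled most, and 958 fell in the 7 classes. The rule returned 97.4% of the male cells of these classes to their class, but the class profiles were means of the same male cells. That share therefore does not measure how well female cells were placed. Counts were summed per mouse and class (at least 5 cells) and tested with edgeR 4.0.16 (TMM factors, filterByExpr, quasi-likelihood test, Benjamini-Hochberg adjusted p under 0.05). That test returns no SE. Each SE and 95% interval of a log2 difference was derived from the difference and its F statistic, and is approximate. DESeq2 1.42.0, other scalings, filters, clusterings and gates were alternatives. The code was tested on simulated data. Scrublet marked 12 cells (0.45%), and HTODemux had removed doublets of different mice. Shares have exact 95% binomial intervals, and a count of 0 allows up to 3 counts. Both cover counting error only. Thinning to 2000 UMIs left out shallower cells (39 macrophages, 34 neutrophils and 11 B cells, for example).

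Every matching symbol is named, those with at least 20 UMIs by class and mouse, and other genes only from fixed lists. The genes, lists and tests were chosen with earlier results of these data known. Class sums of 1 mouse come from the same animal, which pairs them. Their deviations from the class means correlated at 0.0134, 0.00477 and 0.0251 on average in males 1, 2 and 3, and those of the macrophage groups at 0.0494, 0.0711 and 0.189. Gene positions came from GENCODE and promoters from RefSeq, both on GRCm38.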

Additional observations from a re-analysis of the deposited data

How the results depend on the processing

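Of the 34 pairs of a receptor gene and a class called higher, 34 were called again with mouse as replicate block, 34 with DESeq2 (35 in all), 32 with library size only (33 in all) and 33 without a filter on low counts (50 in all, the 17 gained including Il1rl1, Il15ra, Il11ra1 and Il3ra in macrophages and Il5ra in B cells). Leaving out each mouse gave 33 to 37, resolution 0.8 gave 38 and removing the cells Scrublet marked 33, Il18rap then not passing the filter. At resolution 0.8 the cDC2 class held 115 cells instead of 41, so its calls there describe a wider set of cells. Female mice gave 28, of which 25 were shared, with 1 monocyte sum of enough cells. The 9 lost were Il1r2, Il13ra1, Il6ra, Il17ra and Il10ra in monocytes, Il6ra in cDC2, Il18r1 and Il10rb in neutrophils and Il4ra in T or NK cells. Against the other classes summed per mouse, an alternative chosen after the data were seen, 32 were called and 23 shared. The 11 lost were Il1r2, Il13ra1 and Il10ra in monocytes, Il1r2 in cDC1, Il1r2, Il13ra1 and Il6ra in cDC2, Il10rb in neutrophils, Il21r in B cells, and Il18rap and Il4ra in T or NK cells. Over these alternatives 347 of 372 differences kept direction and side of the threshold, 18 missed it and 7 turned. The 7 were Il1r2 in monocytes (-1.19), cDC1 (-0.64) and cDC2 (-0.34), Il10ra in monocytes (-0.14) and Il10rb in neutrophils (-0.83) against summed classes, and Il10rb in neutrophils with library size only (-0.41) and in female mice (-0.12). The cause was not tested.

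With library size only, the share of calls that were higher, over all genes, went from 68% to 88.3% in monocytes, from 53.2% to 21.8% in neutrophils, from 53% to 78.4% in B cells and from 54.1% to 78.1% in T or NK cells, the median log2 difference moving to 0.33, -1.10, 0.48 and 0.44.

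Between Fcrls-only and Ccr2-only macrophages, 1 receptor gene was called. The count was 2 with the replicate block, 2 with library size only, 2 with no filter, and 0 with DESeq2, at resolution 0.8, in female mice and with at least 2 UMIs as the gate. Leaving out each mouse gave 0 to 0. The 2 were Il2rg and Il10rb with the block and with no filter, and Il10rb and Il21r with library size only. The Il2rg adjusted p was 0.257 with DESeq2 and 0.0697 with library size only. The replicate block changed no other call. Between the sexes the count was 0 throughout. Of 23 shares of cells with a UMI, 19 moved on thinning. The 11 genes with fewer than 20 UMIs were outside this count, and their few UMIs limit what can be said of them.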

Other observations

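Small groups outside the 7 classes also carried receptors, which were not particular to them. T or NK cells had Il7r at 331, 252 and 375 CPM, and macrophages held 446 of the 532 Il11ra1 UMIs. The 31 cycling cells of the B lineage, marked by Myl4 and Vpreb3, had Il7r at 306, 277 and 198 CPM in males 1, 2 and 3, above the 45.3, 103 and 151 CPM of the B cells, and with 94 UMIs in 25 of 31 cells. The 11 plasmacytoid dendritic cells had Il7r at 119, 316 and 237 CPM, in 10 of 11 cells. The 10 fibroblast-like cells, which a sort for CD45 should leave out, had Il11ra1 at 206, 56.6 and 199 CPM in 9 of 10 cells, and 7 of 10 also held an Il6st UMI. These groups have 2 to 15 cells per mouse, and no test was run on them.

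Precursor groups differed from their mature counterparts. The 65 granulocyte precursors had Il1r2 at 43.5, 45.6 and 36.8 CPM, below both neutrophil groups in every mouse, and Il17ra at 23.7, 22.8 and 29.5 CPM, below both again, at a median depth of 20237 UMIs. The 24 progenitors marked by Mpo and Cpa3 held 22 of the 161 Il2rb UMIs, in 3 cells, and 17 of the 178 Il18r1 UMIs, in 4 cells.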
